A study of Homo sapiens with 6 samples.

Results

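The cytosolic and mitochondrial heat-shock chaperones described here are 34 genes chosen by name from the 57316 gene names of the deposited count tables. They comprise the heat-shock transcription factors HSF1 and HSF2, the HSP70 and HSP110 chaperones with their J-domain and BAG partners, the HSP90 chaperones with 4 partners, the small heat-shock protein HSPB1, the 8 subunits of the cytosolic chaperonin TRiC/CCT and the mitochondrial chaperonin pair HSPD1 and HSPE1. All 34 names were present in the tables. For 32 of them the counts passed the filter on low values. The 2 that did not were HSPA1A and HSPA1B.

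The RNA is from THP-1, a cell line of human monocytic leukaemia, so every value describes a single cell line. Both groups had received the phorbol ester PMA at 100 ng/ml for 48 h, which turns these cells into macrophage-like cells. The control group (replicates 1, 3 and 4) was then kept for 24 h with a control solution, and the CXCL10 group (replicates 1, 3 and 4) for 24 h with the recombinant human chemokine CXCL10 at 100 ng/ml. Nothing in the labels tells if replicates came from different cultures. The p-values therefore reflect the spread of these libraries alone, which may be technical.

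Chaperones bind unfolded or partly folded proteins and help them reach or keep their native form. J-domain proteins deliver clients to HSP70, nucleotide exchange factors release them again, HSP90 matures signalling proteins such as kinases and steroid receptors, and the ring-shaped chaperonins enclose proteins such as actin and tubulin (TRiC/CCT) or imported mitochondrial proteins (HSPD1 with its lid HSPE1). When unfolded proteins accumulate, HSF1 trimerises, binds heat-shock elements in promoters and raises the transcription of the inducible chaperones.

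Depth ran from 34782380 to 41023583 counted reads over the 6 libraries, and both mates of a fragment were counted. Levels below are in CPM (reads scaled to the library total by edgeR with TMM factors) or, to compare genes, in RPKM (CPM per kb of exon). Of the macrophage and monocyte markers, 7 of 8 had a mean of at least 1 CPM, while CD68 was at or near 0 in every library. Reads over 2 genes were not counted, and whether CD68 lost reads in this way was not tested. Summed over the list, these markers reached 2399 to 2863 CPM in controls and 2318 to 2621 CPM with CXCL10. The T cell, epithelial and erythroid marker lists each summed to under 1 CPM in every library, with CD2, EPCAM, HBA1 and ALAS2 at 0. The B cell list (MS4A1 at 0) summed to 1.38 to 2.17 CPM and the fibroblast list to 1.55 to 2.37 CPM. The endothelial list summed to 1.05 to 2.09 CPM in controls and 2.46 to 3.48 CPM with CXCL10, and its part in the results was not tested. Control replicate 4 stood apart from the other libraries: it was the highest library for 25.8% of the 16531 genes tested and the lowest for 29.3%. Ribosomal protein genes took 12.8% of its reads against 7.67% to 9.85% in the other 5. For genes given library by library in which it was the highest or lowest, the fold change is also given without it. In bulk RNA, fewer cells of a type and less RNA per cell cannot be told apart.

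In the comparison of CXCL10 with control, which asked how macrophage-like cells respond to a day with this chemokine, none of the 32 tested chaperone genes was called (quasi-likelihood test of edgeR over all genes, Benjamini-Hochberg adjustment, lowest adjusted p = 0.683 for HSPE1). DESeq2 and limma-voom called 0 of the 32 as well. The share passing among all genes tested was 0.00% higher and 0.00% lower with CXCL10. At an unadjusted p under 0.05, edgeR counted 1 of the 32, HSPE1, which was lower, or 3.13% against 7.14% of all genes (2.50% higher and 4.65% lower). At that level DESeq2 counted 1 (all genes 7.33%) and limma-voom 2 (all genes 7.15%). With the length trend removed edgeR counted 3, all lower: HSPA8, BAG1 and HSPE1, or 9.38% against 6.32% of all genes. With GC and length trends removed it counted 3 lower, against 7.83% of all genes. The median log2 fold change of the chaperones was 0.02, and that of all genes tested was also 0.02. Of the 32, 18 were above 0 and 14 below, or 43.8% below against 46.0% of all genes. This tally moved with the setting: 8 were below (25.0%, all genes 33.8%) when scaled by library size only, 21 (65.6%, all genes 54.4%) with the length trend removed, 20 (62.5%, all genes 50.3%) without CXCL10 replicate 3, and 25 (78.1%, all genes 52.3%) without both that library and control replicate 4. The groups did not overlap for 2 genes, HSPA8 and HSPE1, both lower with CXCL10, or 6.25% against 12.2% of all genes in either direction (5.76% higher and 6.48% lower).

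The intervals show how large a change these libraries leave possible. For 31 of the 32 genes the whole 95% interval was inside -1 to 1 on the log2 scale, the exception being DNAJA3. Among all 16531 genes tested, this held for 12303. Summed over all 34 genes, chaperone transcripts reached 10114, 10549.7 and 10098 CPM in control replicates 1, 3 and 4 and 9621, 10539.8 and 9684 CPM in CXCL10 replicates 1, 3 and 4. Their summed level thus overlapped between the groups.

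**Figure D1:**
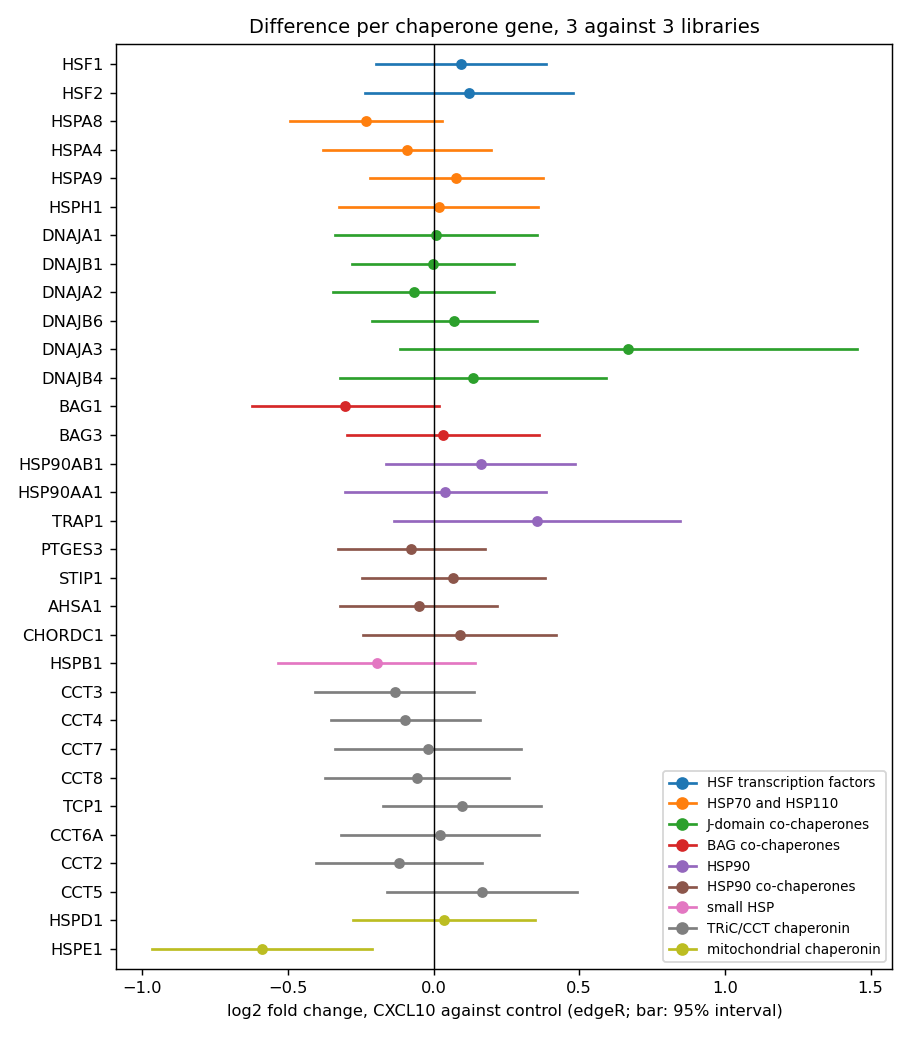
The log2 fold change of CXCL10 against control is plotted on the x axis for the 32 tested genes, listed by role on the y axis, with points for edgeR's estimate and bars for its 95% interval (3 against 3 libraries). The interval of HSPE1 alone excludes 0, before any adjustment, and that of DNAJA3 is the widest.

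The inducible HSP70 genes HSPA1A (chr6:31815464-31817946, hg38) and HSPA1B (chr6:31827738-31830254), the classic targets of HSF1, gave almost no counted reads. HSPA1A had 2 reads in control replicate 1, 2 in control replicate 3 and 0 in the other 4 libraries. HSPA1B had 0 in all 6. Depending on the library, a level of up to 0.146 to 0.173 CPM could give such a count (3 fragments, or 6 reads, covering counting error only). The counted level of both genes was therefore at or under that limit in both groups, and no fold change is given. The limit does not cover reads lost in counting.

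The counting bears on this pair. The genes are near-identical neighbours, and multi-mapped reads were not counted. In the GENCODE 29 transcripts, 67.3% of the distinct stretches of 100 bases in HSPA1A also occurred in another gene, the HSPA1B transcripts holding all of these. For HSPA1B the share was 72.7%. The remaining stretches were specific to 1 gene. In HSPA1B, 36.6% of the exon length also overlaps the gene AL671762.1, where reads were not counted. Other genes nearby had reads: within 100 kb, 7 of 29 neighbouring gene names had at least 1000 reads in all, among them CLIC1 with 37729 to 48070 reads per library and LSM2 with 1134 to 1615. Whether the low counts reflect little HSPA1A and HSPA1B RNA or lost reads was not tested.

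The likeness of the pair extends into the promoters, which RefSeq (GRCh38.p14) gives as follows, from 250 to 80 bases before each annotated start. Capitals mark a pair of inverted heat-shock units, GAANNTTC or TTCNNGAA, read on both strands.
HSPA1A, chr6:31815293-31815463, plus strand: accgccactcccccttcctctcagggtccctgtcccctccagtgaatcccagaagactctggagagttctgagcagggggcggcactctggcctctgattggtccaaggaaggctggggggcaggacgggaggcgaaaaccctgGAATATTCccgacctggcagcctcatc
HSPA1B, chr6:31827488-31827658, plus strand: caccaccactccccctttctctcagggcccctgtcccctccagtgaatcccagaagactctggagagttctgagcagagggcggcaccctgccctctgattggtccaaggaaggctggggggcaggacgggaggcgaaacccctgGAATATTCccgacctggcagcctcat
Over the 250 bases before the start, 235 of 251 aligned positions were identical between HSPA1A and HSPA1B, or 93.6%. Both carry the same paired unit.

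Promoter windows of 300 bases (250 before to 50 after an annotated start) were found for 32 of the 34 genes. Those of HSF1 and CCT6A are not in the table used. A run of 3 inverted units (GAANNTTCNNGAA or TTCNNGAANNTTC, which are each other's reverse complement and contain the paired unit) occurred in 7 of these 32 genes, or 21.9%, against 0.608% of the 27305 genes in the table. The 7 were HSPA8, DNAJA1, DNAJB6, HSP90AA1, HSP90AB1, CHORDC1 and HSPD1. The paired unit occurred in 17 of 32, or 53.1%, against 16.2% of all genes. A match is one of letters and does not show binding. Runs from 4 of the 7 promoters are shown in windows of 30 bases before a RefSeq start, with the units in capitals, because they come from genes of the HSP90, HSP70, chaperonin and co-chaperone groups described below. The windows of HSP90AA1, HSPA8 and HSPD1 lie wholly in annotated exons, upstream of an internal start, and that of CHORDC1 overlaps none.
HSP90AA1, chr14:102087106-102087135, minus strand: ttcTTCCGGAAGGTTCgggaggcttctgga
HSPA8, chr11:123062165-123062194, minus strand: cccTTCTGGAAGGTTCtaagatagggtata
HSPD1, chr2:197500059-197500088, minus strand: attTTCTGGAAAGTTCTGGAAccgagcgag
CHORDC1, chr11:90223083-90223112, minus strand: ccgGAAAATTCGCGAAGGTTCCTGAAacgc
In the 7 genes with a run of 3 units the log2 fold changes had a median of 0.04, 6 being above 0 (85.7%, against 54.0% of all genes tested) and 1, HSPA8, below. That split did not hold across settings. It was 2 above and 5 below with a length trend, or GC and length trends, removed from each library, 3 above and 4 below without CXCL10 replicate 3, and 1 above and 6 below without both CXCL10 replicate 3 and control replicate 4. The other 25 tested genes had a median of -0.00, with 12 above and 13 below. None of either set passed the test.

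HSF1, the master regulator of the heat-shock response, measured 81.1, 77.5 and 70.7 CPM in control replicates 1, 3 and 4 and 92.7, 72.9 and 79.0 CPM in CXCL10 replicates 1, 3 and 4. The groups overlapped, with a log2 fold change of 0.09 ± 0.14 (SE, adjusted p = 0.896) that was 0.04 without control replicate 4. HSF2, a related factor that can form trimers with HSF1, measured 21.2, 24.0 and 22.9 CPM in the controls and 19.5, 29.4 and 25.2 CPM with CXCL10. Its log2 fold change was 0.12 ± 0.17 (adjusted p = 0.887), and CXCL10 replicates 1 and 3 were its lowest and highest libraries. HSF1 is regulated mainly after translation, so transcript levels do not measure its activity.

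HSPA8, the constitutive cytosolic HSP70 (chr11:123057489-123063230), was the most abundant of the 34 genes, also per length, with 501 ± 25.4 RPKM in controls (SD, n = 3). It measured 2338, 2383 and 2570.3 CPM in control replicates 1, 3 and 4 and 1959, 2094 and 2152 CPM in CXCL10 replicates 1, 3 and 4. Every control library lay above every CXCL10 library. The means were 2430.4 ± 123 and 2068 ± 99.0 CPM (SD, n = 3 each). The log2 fold change was -0.23 ± 0.12 (SE, 95% interval -0.49 to 0.03, adjusted p = 0.702), which did not pass the test. Without control replicate 4, the highest library, the log2 fold change was -0.19. Annotated small nucleolar RNA genes overlap 3.61% of the exon length of HSPA8, which joins the exons of all its annotated transcripts.

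The remaining HSP70-type genes showed no such separation. HSPA4 and HSPH1 encode HSP110 proteins, which act as nucleotide exchange factors of HSP70. HSPH1 measured 186, 197 and 206 CPM in the controls and 171, 255 and 170.0 CPM with CXCL10, so a single CXCL10 library, replicate 3, lay above all controls while the other CXCL10 libraries lay below them. HSPA4 had 219.9 to 252 CPM in controls and 195 to 254 CPM with CXCL10. The mitochondrial HSP70 gene HSPA9 had 204 to 219 CPM in controls and 200.3 to 268 CPM with CXCL10, its highest library being CXCL10 replicate 3.

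Among the J-domain co-chaperones, which stimulate the ATPase of HSP70, DNAJA1 was the most abundant per length (88.8 ± 6.20 RPKM in controls, SD, n = 3). DNAJA1 measured 224, 231 and 255 CPM in the controls and 191, 304 and 219 CPM with CXCL10. Its CXCL10 libraries thus spanned the whole control range, and the log2 fold change was 0.01 ± 0.16 (SE, adjusted p = 0.995). DNAJB1, the main heat-inducible J-domain gene, stayed within 108 to 123 CPM in controls and 104 to 124 CPM with CXCL10. DNAJA2 had 85.3 to 107 CPM and DNAJB6, whose product suppresses aggregation of polyglutamine proteins, had 129.6 to 168 CPM over the 6 libraries, with overlapping groups. The least abundant, DNAJB4, had 5.14 to 8.21 CPM.

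DNAJA3, the mitochondrial J-domain gene (chr16:4425805-4456775), measured 21.1, 23.8 and 5.26 CPM in control replicates 1, 3 and 4 and 30.9, 22.2 and 26.9 CPM in CXCL10 replicates 1, 3 and 4. Control replicate 4 was far below the other 5 libraries, with 176 reads against 817 to 1146. The log2 fold change was 0.67 ± 0.37 (SE, 95% interval -0.12 to 1.45, adjusted p = 0.713), the highest of the 32 genes, and it was 0.25 without control replicate 4.

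The BAG proteins release clients from HSP70. BAG1 measured 175, 171 and 229 CPM in the controls and 179, 144 and 143 CPM with CXCL10. The groups overlapped through CXCL10 replicate 1, and the log2 fold change of -0.30 ± 0.15 (SE, adjusted p = 0.702) was -0.15 without control replicate 4. BAG3, a stress-inducible gene of selective autophagy, had 31.3 to 44.1 CPM in controls and 37.1 to 43.0 CPM with CXCL10, the CXCL10 range lying inside that of the controls.

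Of the cytosolic HSP90 genes, the constitutive HSP90AB1 was more abundant per length than the stress-inducible HSP90AA1 in all 6 libraries. The ratio of HSP90AA1 to HSP90AB1, per length, was 0.342, 0.327 and 0.535 in control replicates 1, 3 and 4 and 0.289, 0.455 and 0.322 in CXCL10 replicates 1, 3 and 4. The ratios overlapped between the groups. They were highest in control replicate 4, where HSP90AB1 was low, and in CXCL10 replicate 3, where HSP90AA1 was high. HSP90AB1 measured 1394, 1554 and 1022 CPM in the controls and 1500.0, 1482 and 1457 CPM with CXCL10, so control replicate 4 was its lowest library. Its log2 fold change of 0.16 ± 0.15 (SE, adjusted p = 0.831) was 0.01 without control replicate 4. HSP90AA1 measured 841, 895 and 963 CPM in the controls and 764, 1187 and 825 CPM with CXCL10, where replicate 3 was the highest library and the other CXCL10 replicates lay below all controls.

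TRAP1, the mitochondrial HSP90 (chr16:3651639-3717553), measured 35.2, 38.6 and 18.1 CPM in the controls and 45.9, 34.5 and 37.3 CPM with CXCL10. As with DNAJA3, control replicate 4 was the lowest library, and the log2 fold change of 0.36 ± 0.23 (SE, adjusted p = 0.757) was 0.09 without it. Exons of other genes, mainly DNASE1, share 29.5% of the exon length of TRAP1, and reads over 2 genes were not counted, so its level may be too low.

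All 4 HSP90 partners had overlapping groups. PTGES3, the p23 co-chaperone that stabilises the closed form of HSP90, was the most abundant of them per length (138 ± 1.75 RPKM in controls). PTGES3 measured 464, 475 and 472 CPM in the controls and 441, 464 and 431 CPM with CXCL10. Its log2 fold change was -0.08 ± 0.12 (SE, 95% interval -0.33 to 0.17, adjusted p = 0.902). STIP1, the adaptor that links HSP70 to HSP90, had 288 to 398 CPM in controls and 322 to 396 CPM with CXCL10. AHSA1, an activator of the HSP90 ATPase, had 131 to 141 and 123 to 145 CPM. CHORDC1, an HSP90-binding co-chaperone, had 38.4 to 49.6 and 39.5 to 52.9 CPM.

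HSPB1, the small heat-shock protein HSP27, measured 183, 177 and 209 CPM in the controls and 209, 148 and 141 CPM with CXCL10. CXCL10 replicate 1 lay at the level of the highest control while CXCL10 replicates 3 and 4 lay below all controls. The log2 fold change was -0.20 ± 0.16 (SE, adjusted p = 0.801), and -0.40 without CXCL10 replicate 1. Leaving out control replicate 1 gave -0.22 and leaving out control replicate 3 gave -0.23. The remaining omissions brought the value nearer to 0: leaving out control replicate 4 gave -0.12, CXCL10 replicate 3 gave -0.11 and CXCL10 replicate 4 gave -0.091. Removing GC and length trends gave -0.059.

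The 8 TRiC/CCT subunits form a ring in which each occurs once, yet their transcripts differed widely per length. CCT3 was the highest and CCT5 the lowest subunit in all 6 libraries. In control replicate 1, for example, they had 171 and 22.9 RPKM, a ratio of 7.48. That ratio ran from 7.48 to 10.1 in controls and from 5.24 to 8.97 with CXCL10. The exon length used here joins all annotated transcripts, and 30.8% of that of CCT5 overlaps another gene, so its level may be too low.

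Over the subunits, 3 had a log2 fold change above 0 and 5 below, between -0.13 and 0.17, and none passed the test. CCT3 measured 661, 667 and 694 CPM in the controls and 695, 561 and 587 CPM with CXCL10, with a log2 fold change of -0.13 ± 0.13 (SE, adjusted p = 0.836). CCT5 measured 129, 129 and 100.4 CPM in the controls and 113, 156 and 133 CPM with CXCL10, with a log2 fold change of 0.17 ± 0.15 (adjusted p = 0.824), which was 0.06 without control replicate 4. CCT2 measured 213, 218 and 200.0 CPM in the controls and 164, 211 and 206 CPM with CXCL10, with a log2 fold change of -0.12 ± 0.13 (adjusted p = 0.859). CXCL10 replicate 1 was its lowest library, and without it the value was -0.01.

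The other 5 subunits had overlapping groups. TCP1 had 292 to 302 CPM in controls and 286 to 358 CPM with CXCL10, CCT4 had 247 to 267 and 227 to 254 CPM, and CCT7 had 269 to 331 and 255 to 360.4 CPM. CCT6A (229.9 to 239.6 CPM in controls, 193 to 304 CPM with CXCL10) and CCT8 (252 to 278 and 201 to 300.3 CPM) had narrow control ranges, with CXCL10 replicate 1 below and CXCL10 replicate 3 above all 3 controls in both genes.

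**Figure D2:**
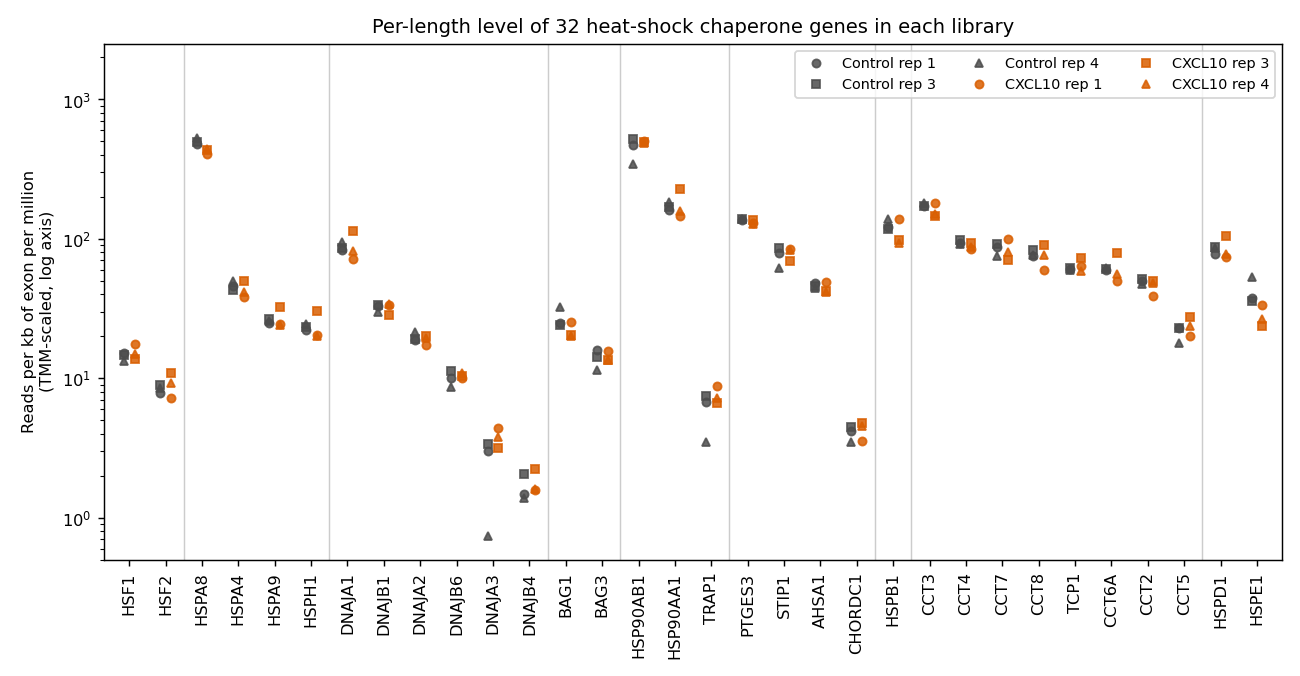
RPKM (y axis, log scale) is plotted for the 32 tested genes (x axis, grouped by role), with 1 symbol per library, grey for control and orange for CXCL10. HSPA8 and HSP90AB1 are the most abundant per length, CCT3 and CCT5 are the extremes among the TRiC/CCT subunits, and control replicate 4 lies low for TRAP1 and DNAJA3.

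HSPE1 and HSPD1 encode the lid and the barrel of the mitochondrial chaperonin. On chromosome 2, HSPE1 spans 197500140 to 197503449 on the plus strand, inside the annotated span of HSPD1, 197486584 to 197516737 on the minus strand. RefSeq places the HSPE1 start at 197500379 and HSPD1 starts at 197500274 and 197499840, so these starts lie head to head. HSPE1 measured 68.2, 65.8 and 97.0 CPM in control replicates 1, 3 and 4 and 61.6, 43.3 and 48.6 CPM in CXCL10 replicates 1, 3 and 4. The groups did not overlap, although CXCL10 replicate 1 lay close to control replicate 3. The means were 77.0 ± 17.4 and 51.2 ± 9.43 CPM (SD, n = 3 each). The log2 fold change was -0.59 ± 0.18 (SE, 95% interval -0.97 to -0.21, edgeR's adjusted p = 0.683), which did not pass. Leaving out control replicate 4 gave -0.38, leaving out CXCL10 replicate 3 gave -0.47 and leaving out both gave -0.28. Only with no filter on low counts did edgeR call HSPE1 (log2 fold change -0.59, adjusted p = 0.0375) and DNAJA3 (0.67, adjusted p = 0.0347).

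HSPD1 did not follow its neighbour. It measured 323, 358 and 353 CPM in the controls and 305, 433 and 322 CPM with CXCL10. Its log2 fold change was 0.04 ± 0.15 (SE, 95% interval -0.28 to 0.35, adjusted p = 0.969). The ratio of HSPD1 to HSPE1, per length, was 2.09, 2.41 and 1.61 in control replicates 1, 3 and 4 and 2.19, 4.42 and 2.93 in CXCL10 replicates 1, 3 and 4, so it overlapped between the groups through CXCL10 replicate 1. CXCL10 replicate 3 was the highest library for HSPD1 and the lowest for HSPE1.

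Some measurements moved with HSPE1. The share of reads from ribosomal protein genes ranked the 6 libraries in the same order as HSPE1. It was 9.85%, 9.67% and 12.8% in control replicates 1, 3 and 4. In CXCL10 replicates 1, 3 and 4 it was 9.62%, 7.67% and 8.40%. As for HSPE1, the groups did not overlap in this share. HSPE1 has 1823 bases of exon, against 4123 for HSPD1, and its longest transcript has 50.2% GC against 44.2%. Exons of HSPD1 and of the read-through gene HSPE1-MOB4 share 17.9% of the exon length of HSPE1, and reads there were not counted. With smooth trends over gene length and GC content removed from each library, the log2 fold change of HSPE1 was -0.53 (adjusted p = 0.609). The part of these measures in the difference was not tested otherwise.

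**Figure D3:**
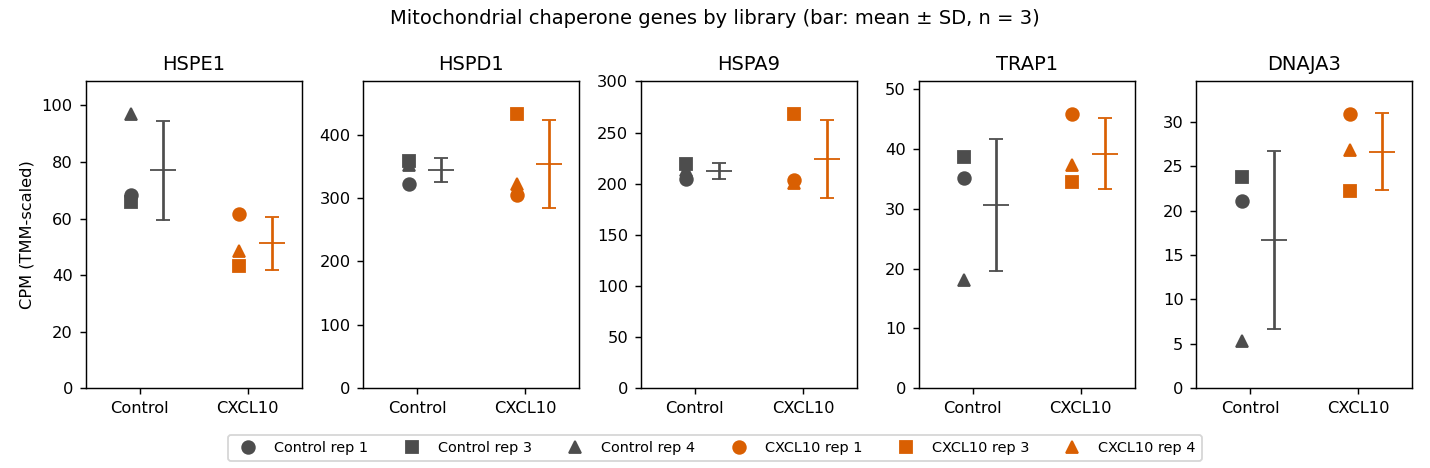
CPM (y axis, from 0) of the 5 mitochondrial chaperone genes in the 3 control and 3 CXCL10 libraries, with 1 symbol per library and the mean ± SD of each group beside it. HSPE1 is the only gene of the 5 whose groups do not overlap, and control replicate 4 is far below the rest for TRAP1 and DNAJA3.

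The CXCL10 libraries differed among themselves in the chaperone genes. CXCL10 replicate 3 was the highest of the 6 libraries for 13 of the 32 genes, or 40.6%, against 25.5% of all genes tested. CXCL10 replicate 1 was the lowest for 11 of them, or 34.4%, against 21.0%. Control replicate 4 was the lowest for 10 and the highest for 5 (29.3% and 25.8% of all genes). Control replicate 3 was the highest for 6 and the lowest for 0 (8.63% and 9.76% of all genes), and control replicate 1 for 1 and 0 (9.47% and 8.49%). CXCL10 replicate 1 was the highest for 6 (17.4% of all genes), CXCL10 replicate 3 the lowest for 4 (19.5%), and CXCL10 replicate 4 the highest for 1 and the lowest for 7 (13.2% and 12.0%). Relative to the mean of the other CXCL10 libraries, on the log2(CPM + 0.5) scale, replicate 3 was above it by 0.58 for HSP90AA1, 0.58 for HSPH1, 0.57 for DNAJA1, 0.57 for CCT6A and 0.47 for HSPD1. These genes serve in the cytosolic HSP90, HSP70 and TRiC/CCT systems and in the mitochondrial chaperonin. Replicate 3 was lower than that mean for DNAJA3 (-0.37), CCT7 (-0.34), HSPE1 (-0.33) and STIP1 (-0.28).

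The spread moved with the base composition of the transcripts. Of the 16 chaperone genes at or under their median GC content of 45.6%, all 16 were above the mean of the other CXCL10 libraries in replicate 3 and all 16 were below it in replicate 1. Among the 16 richer in GC, 13 were below it in replicate 3 and 13 above it in replicate 1. The correlation with GC content over the 32 genes was -0.75 (Pearson) and -0.78 (Spearman) in replicate 3 and 0.77 and 0.76 in replicate 1. Relative to the other controls, it was 0.39 and 0.52 in control replicate 1 and 0.04 and 0.10 in control replicate 3. In control replicate 4 it was -0.20 and -0.30. These are descriptions over genes that share their libraries. Within each group, every library enters the reference of the others, so the patterns are not independent.

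Genes outside the chaperones showed the same order. Of the 6526 other tested genes at or under 45.6% GC, 78.4% were above the other CXCL10 libraries in replicate 3, and of the 9837 above that content 30.1% were. Over the 16363 other genes with a known GC content, the Pearson correlation was -0.53 in CXCL10 replicate 3 and 0.52 in CXCL10 replicate 1. It was 0.19 in control replicate 1 and -0.12 in control replicate 4. The GC content is that of the longest GENCODE 29 transcript of each name. With GC and length trends removed, the median log2 fold change of the chaperones was -0.05 and that of all genes -0.03. None of the 32 passed the test with them removed. The part of base composition in single results was not tested otherwise.

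**Figure D4:**
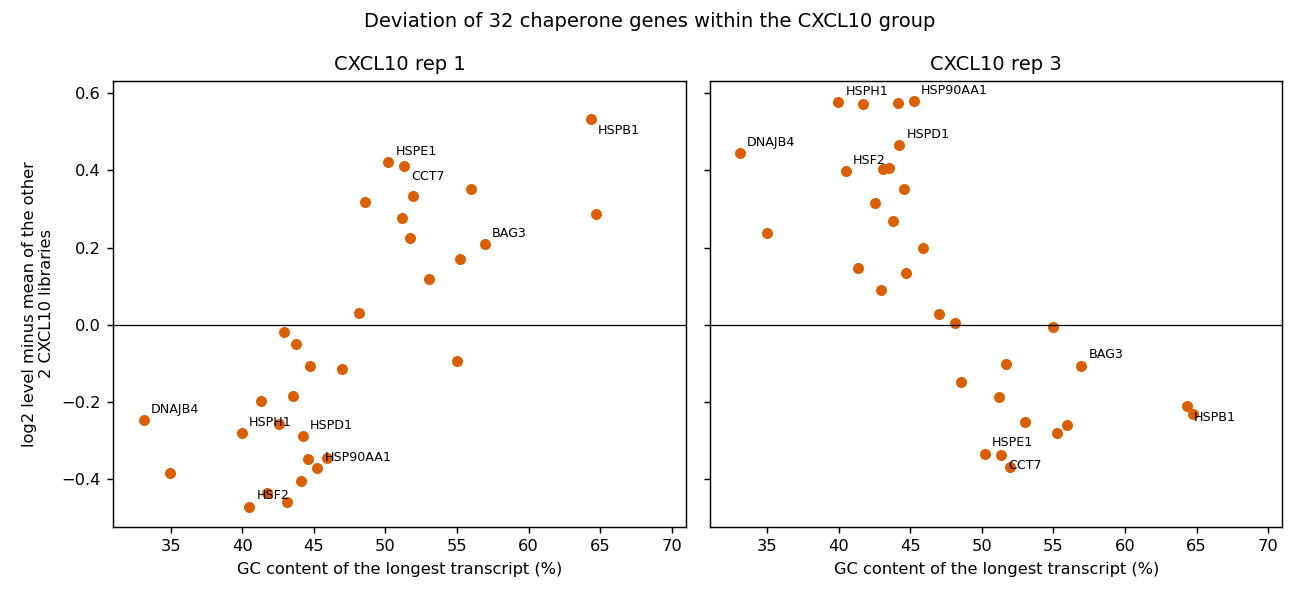
The GC content of the longest transcript (x axis, %) is plotted against the log2 level relative to the mean of the other CXCL10 libraries (y axis) for CXCL10 replicate 1 (left) and CXCL10 replicate 3 (right), 1 point per gene, 32 genes. Genes low in GC such as HSPH1 and HSP90AA1 lie below 0 in replicate 1 and above 0 in replicate 3, and genes rich in GC such as CCT7 lie the opposite way.

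**Figure D5:**
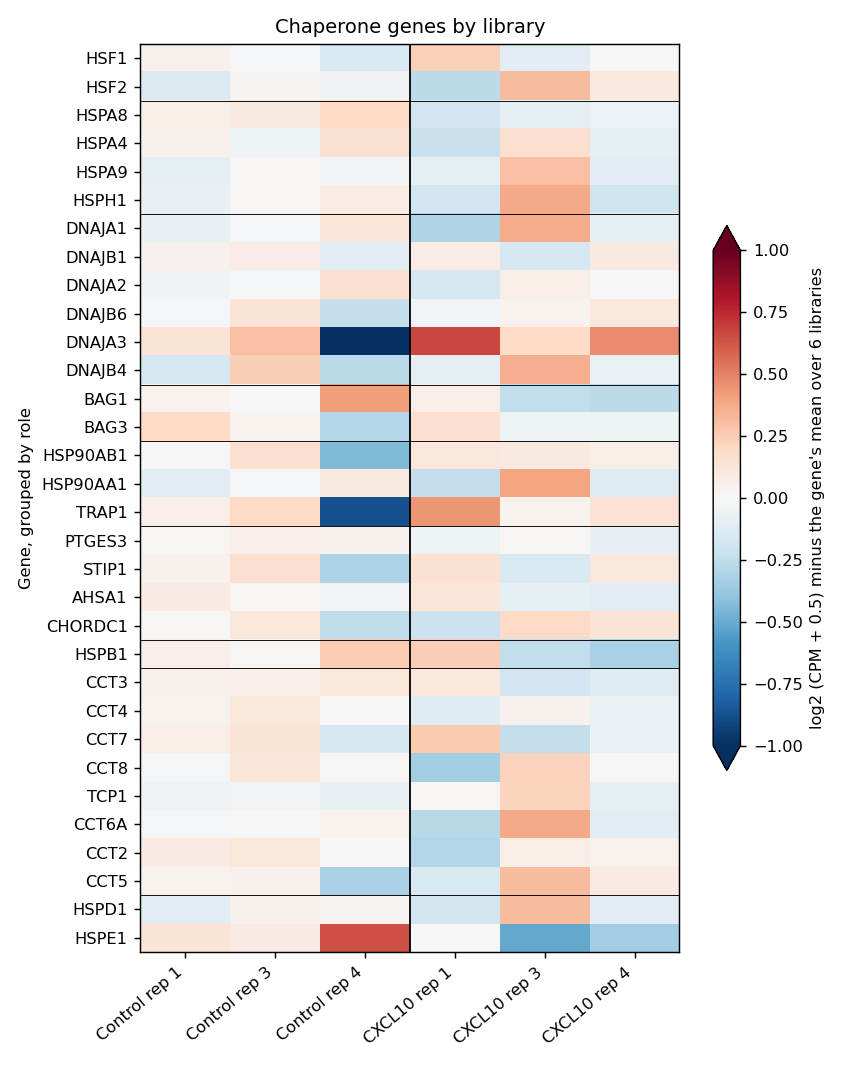
Each row is 1 of the 32 tested genes, grouped by role, and each column 1 library, and colour gives log2 (CPM + 0.5) minus the gene's mean over the 6 libraries (values beyond -1 or 1 take the end colour). CXCL10 replicates 1 and 3 differ in opposite directions for many genes, and control replicate 4 is low for DNAJA3 and TRAP1 and high for HSPE1 and BAG1.

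A further list of 66 genes covered the rest of the cytosolic and mitochondrial folding network: other HSP70, J-domain, BAG and HSP90 partners, prefoldin and the mitochondrial proteases. Of these, 61 were tested and 0 passed in either direction by edgeR (lowest adjusted p = 0.683), DESeq2 or limma-voom. At an unadjusted p under 0.05, edgeR counted 1 higher and 5 lower, or 9.84% against 7.14% of all genes. DESeq2 counted 5 of 61 (all genes 7.33%) and limma-voom 7 of 61 (all genes 7.15%) at that level. The median log2 fold change was -0.02, with 29 genes above 0 and 32 below. The groups did not overlap for 2 genes on the higher and 9 on the lower side, or 18.0% against 12.2% of all genes.

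The lowest p-values on the lower side belonged to PFDN2, HIKESHI and PFDN5. PFDN2 and PFDN5 are subunits of prefoldin, which hands unfolded actin and tubulin to TRiC/CCT, and HIKESHI carries HSP70 into the nucleus during heat stress. PFDN2 measured 113, 103 and 154 CPM in control replicates 1, 3 and 4 and 87.7, 87.3 and 89.1 CPM in CXCL10 replicates 1, 3 and 4. PFDN5 measured 554, 543 and 817 CPM in the controls and 533, 379.9 and 444 CPM with CXCL10. HIKESHI measured 73.0, 67.6 and 93.8 CPM in the controls and 60.6, 51.1 and 61.6 CPM with CXCL10. Their log2 fold changes were -0.49, -0.50 and -0.44 in the same order (edgeR adjusted p = 0.683 for each). As for HSPE1, control replicate 4 was the highest library in all 3 genes and CXCL10 replicate 3 the lowest. Without control replicate 4 the log2 fold changes were -0.29 for PFDN2, -0.27 for PFDN5 and -0.28 for HIKESHI. In that setting edgeR counted 1 of the 61 genes, PFDN2, at an unadjusted p under 0.05, or 1.64% against 3.79% of all genes.

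On the higher side the lowest p-values belonged to DNAJC9, a histone chaperone with a J domain, DNAJC6, which uncoats clathrin vesicles with HSP70, and AFG3L2, a protease of the mitochondrial inner membrane. DNAJC9 measured 6.83, 6.32 and 4.19 CPM in the controls and 6.61, 9.46 and 8.69 CPM with CXCL10. DNAJC6 measured 1.19, 0.688 and 0.598 CPM in the controls and 1.35, 1.60 and 1.23 CPM with CXCL10. AFG3L2 measured 37.1, 43.2 and 21.8 CPM in the controls and 44.7, 41.7 and 46.4 CPM with CXCL10. All 3 genes had their minimum in control replicate 4. With all libraries their log2 fold changes were 0.51, 0.75 and 0.38 in the same order, and without control replicate 4 they were 0.33, 0.57 and 0.15 (lowest edgeR adjusted p = 0.683 with it and 0.997 without it).

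HSPA6, a strictly stress-inducible HSP70 named here after its values were seen, had 32, 32 and 14 reads in control replicates 1, 3 and 4 and 26, 36 and 8 reads in CXCL10 replicates 1, 3 and 4. The untested genes of the list were HSPA1L, HSPA12B, CRYAB, HSPB6 and HSPB8, with at most 8 reads in any library. CRYAB and HSPB8 encode small heat-shock proteins.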

How the data were processed

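Polyadenylated RNA of 6 samples was sequenced after stranded library preparation, per the labels. Reads were processed with Trim Galore, STAR, Subread and featureCounts on hg38, per the submitters' processing notes, whose other versions are not named. The deposited values are raw read counts per gene name, produced by the authors on GENCODE 30 exons (featureCounts 2.0.6), per the file headers. Both mates were counted, strand was ignored (so antisense genes cannot be told apart), and reads over 2 genes or mapped to several places were left out.

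Groups were taken from the labels. All genes were tested here with edgeR 4.0.16 in R 4.3.3 (filterByExpr, TMM, quasi-likelihood fit on group, Benjamini-Hochberg adjustment over 16531 genes, threshold 0.05), after a check on simulated counts. Standard errors come from the fold change and its F statistic. DESeq2 1.42.0, limma-voom (limma 3.58.1), other factors and filters, a replicate block, length and GC trends and omitted libraries were alternatives. The members and lists were chosen with earlier results of these data known. Per-library values are given for the 10 members with the lowest p, those without overlap, the most abundant per role, and HSPA1A, HSPA1B, HSF1 and HSF2. Those of HSPH1 and HSP90AA1 were added after their values were seen. Of the further network genes, the 3 with the lowest p per direction and a mean of at least 1 CPM are named. All 15 pairs of libraries differed by more than sampling noise.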

Additional observations from a re-analysis of the deposited data

How the results depend on the processing

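No chaperone gene was called under other normalization factors, a filter of 1 CPM in 3 libraries, DESeq2, limma-voom, the replicate block, length trend removal, a threshold of 0.1 or any single omitted library. Without a filter on low counts edgeR called 137 genes in all and 2 chaperones, HSPE1 and DNAJA3. Settings added after the data were seen also called no chaperone, though without control replicate 4 and CXCL10 replicate 3 together edgeR called 6 genes in all. Deviations from the group means correlated weakly between libraries of the same number (0.03, 0.02 and -0.05 for numbers 1, 3 and 4). With 3 libraries per group, these values cannot decide whether the numbers pair the libraries. With the replicate block edgeR called 0 genes. At an unadjusted p under 0.05 it then counted 3 chaperones (9.38%, all genes 1323 of 16531), against 1 (3.13%, all genes 1181 of 16531) without the block. Scaled by library size only, 744 genes were higher and 407 lower at that level, against 413 and 768 with TMM. Counts over all genes at that level moved by over 1.5 times without control replicate 4 (649), CXCL10 replicate 1 (2103), CXCL10 replicate 3 (626) or CXCL10 replicate 4 (649), against 1181 with all libraries.

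The sign of many small log2 fold changes depended on the setting, and the cause was not tested. Of the 32 genes, 15 changed sign without control replicate 4 and CXCL10 replicate 3, 10 without CXCL10 replicate 3, 9 with GC and length trends removed and control replicate 4 left out, 7 with length or GC and length trends removed and 6 with library size only. DNAJA1 was -0.0041 with upper-quartile factors, -0.018 with the replicate block, -0.017 with limma-voom and -0.15 without control replicate 4 and CXCL10 replicate 3. Leaving out 1 library, DNAJA1 ran from -0.20 to 0.14, HSPD1 from -0.13 to 0.13, HSF1 from -0.0099 to 0.18 and HSF2 from -0.016 to 0.27. HSPD1 was -0.0027 with the length trend removed, -0.013 with GC and length trends removed and -0.12 without both libraries, where HSF2 was -0.017 and CCT5 -0.071. CCT5 was -0.016 with GC and length trends removed and without control replicate 4, and PTGES3 was 0.0023 scaled by library size only. Leaving out 1 library, HSPE1 ran from -0.75 to -0.38, HSPA8 from -0.26 to -0.19, DNAJA3 from 0.25 to 1.02, TRAP1 from 0.09 to 0.57 and HSP90AB1 from 0.01 to 0.31.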
